A study of Mus musculus with 66 samples.

Results

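Microglia are the resident macrophages of the central nervous system, and 8 genes commonly used to recognise them were followed through every library of a series on *Rorb* mutant mice. The 8 were the receptors *Cx3cr1*, *P2ry12*, *Csf1r* and *Trem2*, the membrane protein gene *Tmem119*, the adaptor gene *Tyrobp*, the cytoplasmic protein gene *Aif1* and the integrin subunit gene *Itgam*. They were taken from a list of gene symbols, not from measured values, and each symbol matched 1 of the 45706 gene identifiers in the deposited tables. All 8 passed the low-count filter in all comparisons described here. RNA was sequenced from 66 libraries of 30 mice in 20 groups, each group 1 tissue of 1 genotype, with 3 or 4 mice per group.

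*Rorb* encodes the nuclear receptor ROR beta, and the study asked what its loss does to gene expression in the brain and spinal cord. The 5 mutant strains carry spontaneous alleles and were used as homozygotes. *Rorb* h1/h1 arose on C57BL/6J and carries a duplication that takes in the first exon of the *Rorb1* isoform. *Rorb* h2/h2 and *Rorb* h3/h3 arose on B6(Cg)-Tyr c-2J/J, and their causal mutations are not known. *Rorb* h4/h4 arose on B6.129S7-Il1r1 tm1/mx/J and carries a nonsense mutation. *Rorb* h5/h5 arose on DBA/1J and has lost the start codon of *Rorb1*. Wild-type C57BL/6J mice served as the control of h1 to h4, so these 4 comparisons share 3 control libraries per tissue, and wild-type DBA/1J mice served h5. The strains are named h1 to h5 below. Brain hemisections and whole spinal cords came from the same 24 mice, with n = 3 for C57BL/6J, h1, DBA/1J and h5 and n = 4 for h2, h3 and h4. C57BL/6J and h1 mice were 8.0 weeks old, h2 mice 7.9 to 9.4, h3 mice 8.0 to 9.6, h4 mice 8.4 to 8.6, DBA/1J mice 8.4 to 8.9 and h5 mice 8.4 to 8.7. Cortex, hippocampus and cerebellum were dissected from 6 further mice of 7.0 weeks, 3 DBA/1J and 3 h5. Both sexes were present in every group. The strains on which h2, h3 and h4 arose differ from the C57BL/6J controls at *Tyr* or *Il1r1*, so the *Rorb* mutation and the substrain cannot be told apart in those comparisons.

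Microglia enter the brain from the embryonic yolk sac, renew themselves locally and survey the tissue with motile processes. CSF1R, bound by CSF1 or IL34, keeps them alive. CX3CR1 binds the neuronal chemokine CX3CL1, and P2RY12 senses nucleotides released at sites of damage and steers process movement. TREM2 binds lipids and apolipoproteins and signals through TYROBP, also known as DAP12, to the kinase SYK. ITGAM pairs with ITGB2 to form complement receptor CR3, and AIF1, the protein stained as IBA1, binds actin and calcium. The role of TMEM119 is less well understood, and it is used mainly as a marker. Of the 8, *P2ry12* and *Tmem119* are the most restricted to microglia, while *Csf1r*, *Cx3cr1*, *Trem2*, *Tyrobp*, *Aif1* and *Itgam* are also used by macrophages at the borders of the brain and, in part, by blood monocytes. These were measurements of whole tissue, in which fewer microglia and less RNA per microglial cell cannot be told apart.

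The promoters of 3 of the genes are shown because they held AGGTCA, the 6-base half-site of ROR receptors. These receptors bind it with an A/T-rich stretch before it, which was not part of the search. RefSeq windows of GRCm38.p6 were available for 5 of the 8, *Cx3cr1*, *P2ry12*, *Trem2*, *Aif1* and *Itgam*, and the 250 bases before each annotated start were searched on both strands. Each sequence is given 5′ to 3′ on the strand of its gene. Capitals mark AGGTCA, seen here as its reverse complement TGACCT, and GAGGAA, a core sequence of the myeloid factor PU.1, seen as TTCCTC. *P2ry12* is on the minus strand of chr3:59262986-59263235, *Aif1* on the minus strand of chr17:35176084-35176302 and *Trem2* on the plus strand of chr17:48346151-48346400.
P2ry12: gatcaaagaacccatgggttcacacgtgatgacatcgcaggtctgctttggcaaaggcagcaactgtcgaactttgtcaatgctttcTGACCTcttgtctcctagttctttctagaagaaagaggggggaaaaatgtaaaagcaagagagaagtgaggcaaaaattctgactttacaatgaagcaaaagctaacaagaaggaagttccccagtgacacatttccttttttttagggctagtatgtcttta
Aif1: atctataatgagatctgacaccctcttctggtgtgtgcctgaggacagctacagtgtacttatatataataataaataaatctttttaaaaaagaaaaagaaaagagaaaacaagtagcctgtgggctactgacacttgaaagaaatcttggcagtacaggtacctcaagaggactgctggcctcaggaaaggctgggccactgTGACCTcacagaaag
Trem2: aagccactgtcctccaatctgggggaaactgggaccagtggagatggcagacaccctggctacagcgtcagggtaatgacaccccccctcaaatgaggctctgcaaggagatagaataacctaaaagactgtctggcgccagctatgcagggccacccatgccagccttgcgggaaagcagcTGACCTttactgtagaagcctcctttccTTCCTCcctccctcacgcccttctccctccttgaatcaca
AGGTCA lay 163 bases before the annotated start of *P2ry12* and 68 bases before that of *Trem2*. In *Aif1* it lay 46 bases before the start used by the promoter table. That start is 31 bases inside the gene as placed below, and those 31 bases are not printed. The match was on the minus strand relative to the gene each time. AGGTCA was present in 14.02% of all 32851 promoter windows of this length, so a match in 3 of 5 is a description of these sequences and not a site of binding. GAGGAA occurred in 23.3% of windows and in *Itgam*, *Aif1* and *Trem2*. It lay 40 bases before the *Trem2* start and, in *Itgam*, 84 and 15 bases before the start. In *Aif1* it lay 7 bases before the start used by the promoter table, within a stretch that another transcript of the gene includes and that is not printed. The longer PU.1 sequence GAGGAAGT, in 2.44% of windows, the composite GGAANNGAA, in 6.99%, and TATAAA, in 12.4%, matched none of the 5.

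Library totals ran from 32889755 to 59120536 counts with a median of 42391893. As a check of the labels, *Rorb* itself was read at 10.99 to 13.14 TPM (transcripts scaled per length and to a common library total) in the C57BL/6J brain, 7.31 to 7.82 in h1, 5.76 to 6.58 in h2, 11.1 to 11.8 in h3 and 2.57 to 3.57 in h4. It was read at 10.6 to 13.8 TPM in the DBA/1J brain and 15.4 to 18.2 in h5, whose allele changes the start codon. The h3 brains therefore overlapped their controls in total *Rorb*. The microglia genes were expressed at moderate levels. *Csf1r* had the most reads, with a median of 2727 per library and a lowest count of 842, and *Aif1* the fewest, with a median of 115 and a lowest count of 21. Counting error alone at the lowest library was 3.45% for *Csf1r*, 5.01% for *Cx3cr1*, 6.27% for *P2ry12*, 8.14% for *Itgam*, 9.37% for *Tmem119*, 12.2% for *Trem2*, 14.7% for *Tyrobp* and 21.8% for *Aif1*. These percentages cover counting error only. The summed TPM of the 8 ran from 118.3 to 162.7 in the C57BL/6J brain and from 133 to 142 in the C57BL/6J spinal cord, and none of the 8 was at 0 in any library.

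The counts were estimates per gene from reads assigned to its annotated transcripts, not from all reads within the spans below. On GRCm38.p6 RefSeq places *Cx3cr1* (identifier ENSMUSG00000052336) at chr9:120048683-120068296, *P2ry12* (identifier ENSMUSG00000036353) at chr3:59216271-59262985, *Tmem119* (identifier ENSMUSG00000054675) at chr5:113793729-113800396 and *Csf1r* (identifier ENSMUSG00000024621) at chr18:61105572-61131139. It places *Trem2* (identifier ENSMUSG00000023992) at chr17:48346401-48352276, *Tyrobp* (identifier ENSMUSG00000030579) at chr7:30413782-30417582, *Aif1* (identifier ENSMUSG00000024397) at chr17:35170986-35176083 and *Itgam* (identifier ENSMUSG00000030786) at chr7:128062640-128118491.

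On the per-length TPM scale *P2ry12* had the highest level of the 8 in the median library, 34.3, followed by *Csf1r* at 32.5 and *Tyrobp* at 26.0. *Cx3cr1* was at 20.6, *Tmem119* at 9.67, *Trem2* at 9.26, *Aif1* at 8.49 and *Itgam* at 7.46. Across the 66 libraries *P2ry12* spanned 12.04 to 78.78 TPM, *Csf1r* 12.1 to 48.5, *Tyrobp* 8.24 to 43.2, *Cx3cr1* 7.26 to 33.1, *Tmem119* 3.19 to 16.1, *Trem2* 4.30 to 17.6, *Aif1* 2.50 to 24.4 and *Itgam* 2.17 to 11.4. When the 20 groups were ordered by mean TPM, a cerebellar group came last for all 8 genes. A cortical group came first for 7 of them, and for *Tyrobp* the DBA/1J spinal cord came first. The ratio of the highest to the lowest group mean was 8.36 for *Aif1*, 5.39 for *P2ry12*, 4.07 for *Itgam*, 4.06 for *Tmem119*, 3.89 for *Cx3cr1*, 3.48 for *Csf1r*, 3.37 for *Tyrobp* and 3.21 for *Trem2*. Most neighbours in these orders were not separated. Of the 19 neighbouring pairs of groups per gene, 17 for *P2ry12* and *Tmem119* and 18 for each of the other 6 overlapped within 1 SD of each mean. The plot of levels by library shows the cerebellar libraries below all others for 7 of the 8 genes, whereas for *Aif1* they reached 4.59 TPM and the spinal cord began at 4.42.

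**Figure D1:**
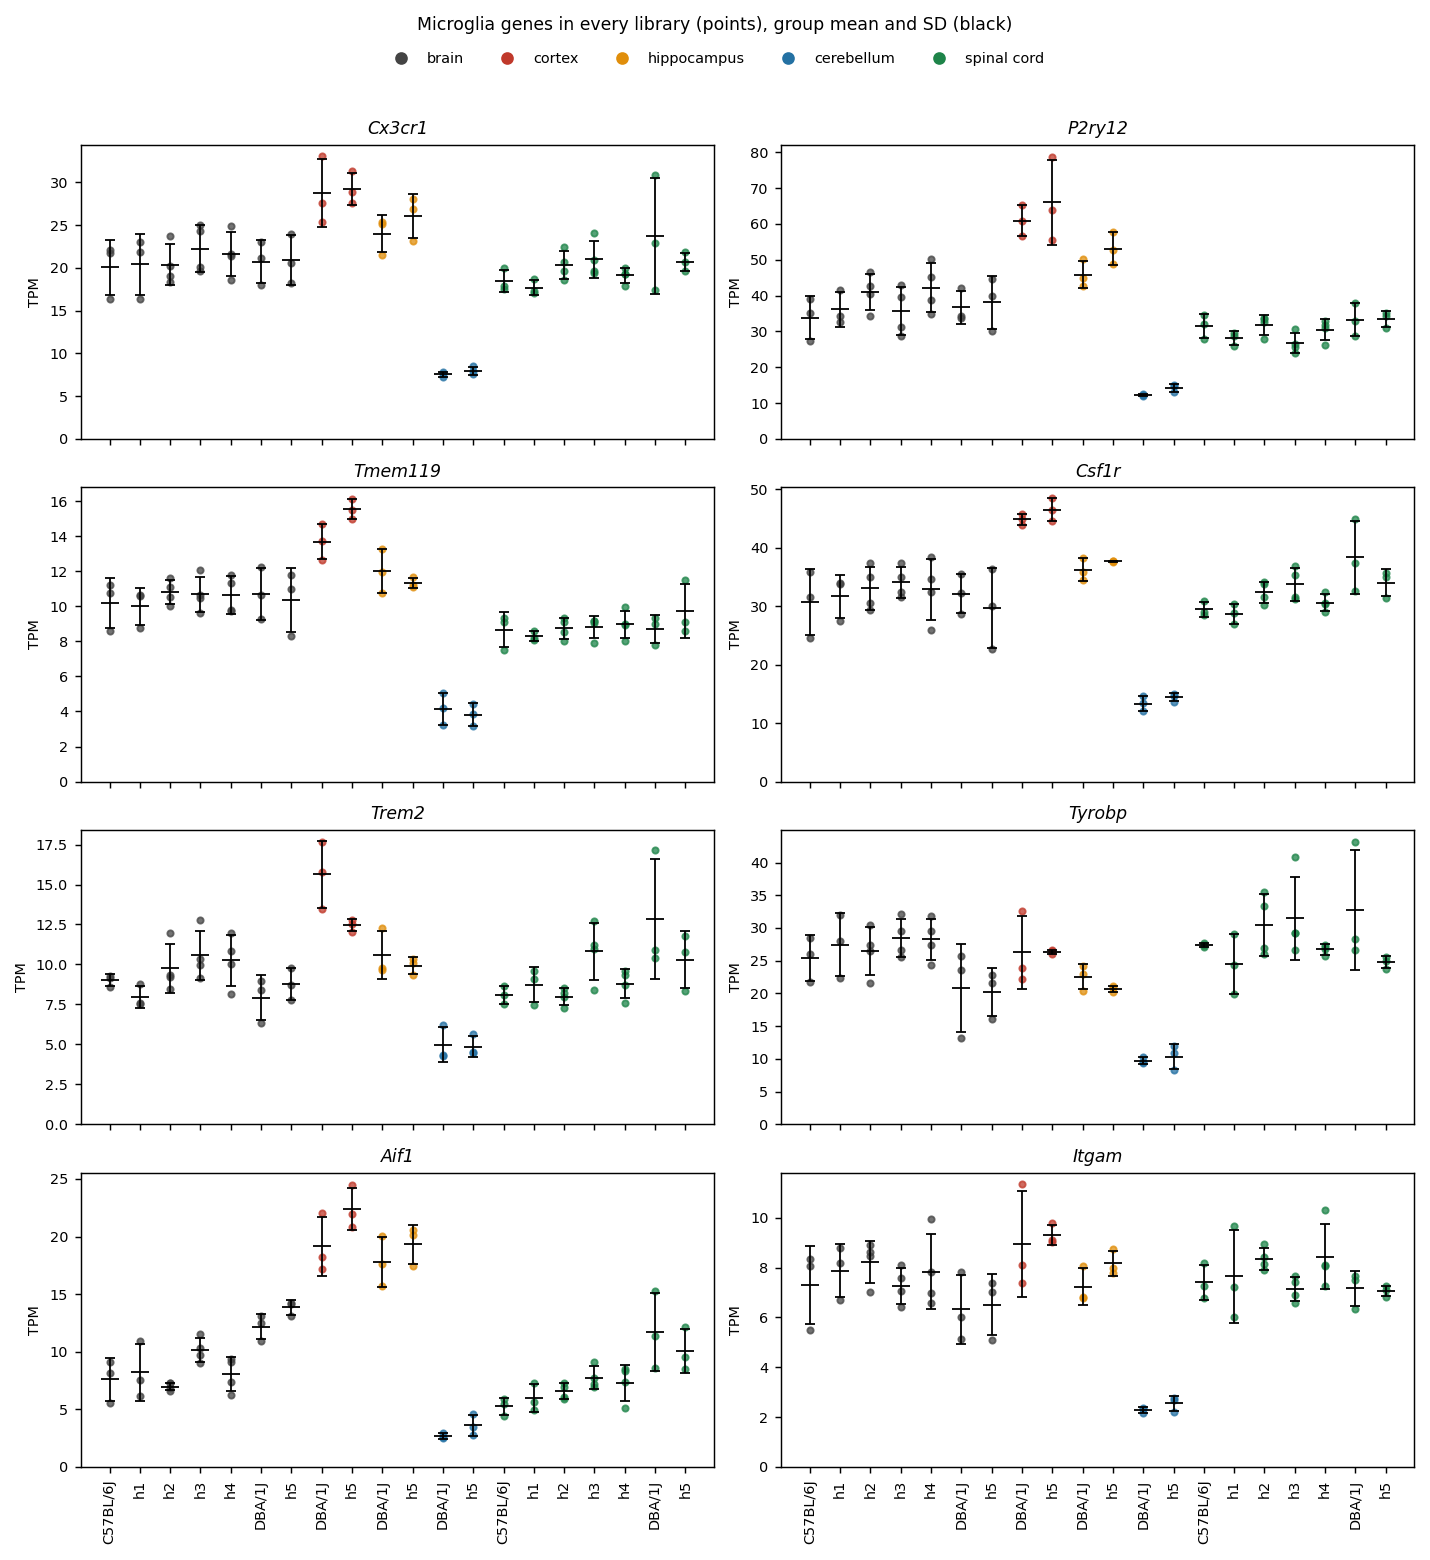
TPM (linear axis from 0) of each gene in each of the 66 libraries, by genotype and coloured by tissue, with the mean ± SD of each group in black. The 6 cerebellar libraries sit below all others for 7 of the 8 genes, for example at 7.26 to 8.48 TPM for *Cx3cr1* against at least 16.35 in the other tissues, and for *Aif1* their range of 2.50 to 4.59 meets that of spinal cord, from 4.42.

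All 8 genes were far lower in the cerebellum than in the cortex of wild-type DBA/1J mice. *Aif1*, the IBA1 gene, differed most. Its cortical libraries held 22.1, 18.2 and 17.2 TPM and its cerebellar libraries 2.50, 2.96 and 2.58. The purinergic receptor gene *P2ry12* held 65.4, 60.8 and 56.7 TPM in cortex and 12.21, 12.48 and 12.04 in cerebellum. The 2 regions did not come near each other for either gene. Fitted with edgeR, *Aif1* was 8.55-fold lower in cerebellum (log2 fold change −3.10 ± 0.21 SE, adjusted p = 1.46e-06) and *P2ry12* 5.86-fold lower (−2.55 ± 0.11, adjusted p = 4.53e-08). *Csf1r*, the receptor that sustains microglia, read 45.8, 44.9 and 43.9 TPM in cortex against 13.4, 14.6 and 12.1 in cerebellum, a 3.98-fold difference (−1.99 ± 0.087, adjusted p = 6.37e-08). The fractalkine receptor gene *Cx3cr1* went from 33.1, 27.6 and 25.4 TPM to 7.79, 7.54 and 7.26, and was 4.47-fold lower. For each of these 4 genes the cerebellar values lay close together.

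The remaining 4 genes were lower in cerebellum as well. *Itgam*, the complement receptor subunit, was 4.52-fold lower in cerebellum, with cortical libraries at 11.4, 8.10 and 7.38 TPM and cerebellar ones at 2.17, 2.31 and 2.38. *Tmem119* was 4.18-fold lower, from 13.7, 14.7 and 12.7 TPM to 5.04, 4.17 and 3.24. The signalling pair differed least. *Trem2* read 17.6, 15.8 and 13.5 TPM in cortex and 6.24, 4.36 and 4.30 in cerebellum, 3.81-fold lower (−1.93 ± 0.18, adjusted p = 1.47e-05), and its adaptor *Tyrobp* read 32.6, 23.9 and 22.2 TPM against 10.3, 9.39 and 9.45, 3.10-fold lower (−1.63 ± 0.21, adjusted p = 1.13e-04). No cerebellar library overlapped a cortical one for any of the 8. The median log2 fold change of the 8 was −2.11, against 0.01 over all 17329 genes tested. In this comparison 58.1% of all genes passed the adjusted threshold of 0.05, so the count of 8 of 8 is to be read beside that share. The h5 mice, which the fit did not use, showed the same order. In all 6 dissected mice each of the 8 genes was lower in cerebellum than in cortex. The median gap in log2 CPM ran from 2.95 for *Aif1* down to 1.47 for *Tyrobp*. CPM here are counts scaled by library totals after adjustment with edgeR's TMM factors. All 8 calls held in each of the 11 alternatives run.

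Other genes of microglia moved the same way between these regions. Of 19 other homeostatic microglia genes tested, 16 were lower in cerebellum and none higher, with a median of −1.66. Among them were the transcription factor gene *Sall1* at −2.004, the receptor gene *Gpr34* at −2.56 and the TGF beta receptor gene *Tgfbr1* at −1.23. Of 15 ligands, partners and signalling genes of the 8, 12 were lower and 1 higher, with a median of −1.33. The CSF1R ligand *Il34* was at −3.23 and the CX3CR1 ligand *Cx3cl1* at −3.47, both made largely by neurons, the transcription factor gene *Mef2c* at −4.07, which neurons also express, and the phosphatase gene *Inpp5d* at −2.01. The other CSF1R ligand, *Csf1*, was at 0.21 with an adjusted p of 0.0874. The TYROBP kinase gene *Syk* was at −2.10, the ITGAM partner *Itgb2* at −1.26, and the myeloid transcription factor genes *Spi1* and *Irf8* at −1.81 and −1.75. The integrin gene *Itgal* was the 1 that was higher, at 1.18. *Csf1*, *Syk*, *Itgb2*, *Spi1*, *Irf8* and *Itgal* are named here as direct partners of the 8 or as the exception, after their values were seen. Of 14 disease-associated microglia genes, 4 were higher, among them *Spp1* at 1.53, and 3 lower, among them *Lpl* at −3.84, and most of these are also made by other cells. Of 8 border macrophage genes tested 3 were lower, *Stab1* at −0.53, *Mrc1* at −0.79 and *F13a1* at −0.76, and none higher, with a median of −0.51, where 58.1% of all genes were called in either direction. Whether this list differed from the 8 genes was not tested. Their summed level was 14.2 to 15.7 TPM in cerebellum and 15.6 to 17.9 in cortex, and that of the 8 genes was 53.3 to 59.6 TPM in cerebellum and 198.9 to 241.7 in cortex.

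The composition of the dissected pieces differed in other ways too. All 7 meningeal fibroblast genes and all 5 choroid plexus genes were higher in cerebellum than in cortex, with medians of 1.03 and 2.78. The summed choroid plexus level was 2561 to 3716 TPM in cerebellum against 21.8 to 878.6 among the cortical libraries. Of 10 neuron genes 6 were lower and 3 higher, and of 8 oligodendrocyte genes 1 was lower. Of 7 astrocyte genes tested 3 were higher and 2 lower, with a summed level of 2834 to 2927 TPM in cerebellum against 1772 to 2289 in cortex, and of 6 oligodendrocyte precursor genes 5 were lower and 1 higher, at 48.6 to 51.7 TPM against 71.0 to 85.9. Mitochondrial genes took 3.94 to 4.65% of counts in cerebellum and 5.27 to 8.09% in cortex. The part of these differences in the levels of the microglia genes was not tested.

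In the hippocampus the 8 genes lay between the other regions and close to the cortex. Against the cerebellum all 8 were higher, from 1.19 ± 0.17 for *Trem2* to 2.88 ± 0.19 for *Aif1* on the log2 scale, with a median of 1.79, in a comparison in which 64.0% of all genes were called. Against the cortex all 8 fitted values were negative, with a median of −0.33, and 3 passed the test, where 20.6% of all genes did. *Trem2* read 12.3, 9.79 and 9.63 TPM in hippocampus, all under the 3 cortical values, and was at −0.72 ± 0.17 with an adjusted p of 0.0195. *Csf1r* read 34.4, 35.9 and 38.3 TPM, again under all cortical libraries, and was at −0.37 ± 0.070 with an adjusted p of 0.0067. *P2ry12* read 44.8, 42.8 and 50.1 TPM and was at −0.38 ± 0.088 with an adjusted p of 0.0159. The summed choroid plexus level was 1496 to 6226 TPM in hippocampus against 21.8 to 878.6 in cortex, with 4 of 5 genes higher, and the meningeal level 204 to 327 against 76.2 to 97.7, with 5 of 7 higher. The part of these in the microglia values was not tested.

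The other 5 ran from −0.33 for *Cx3cr1* to −0.19 for *Aif1* and did not pass. Counted per animal over DBA/1J and h5, hippocampus was below cortex in 6 of 6 mice for *Cx3cr1*, *P2ry12*, *Csf1r*, *Trem2* and *Itgam*, in 5 of 6 for *Tmem119* and *Tyrobp* and in 4 of 6 for *Aif1*. With the animal as a block *Cx3cr1* was added, at an adjusted p of 0.0418. Single libraries moved this count. It was 1 without hippocampus replicate 2 or cortex replicate 2, and 6 without cortex replicate 3, in which all 8 genes were lowest of the 3 cortical libraries. The call of *Csf1r* remained in all 11 alternatives, and those of *Trem2* and *P2ry12* in 8 of 11. Of the 19 other homeostatic genes 2 were lower in hippocampus, *Siglech* at −0.54 and *P2ry13* at −0.45, and of the ligands and partners *Mef2c*, *Il34* and *Cx3cl1* were lower at −2.08, −0.58 and −0.42 while *Csf1* was higher at 0.46.

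**Figure D2:**
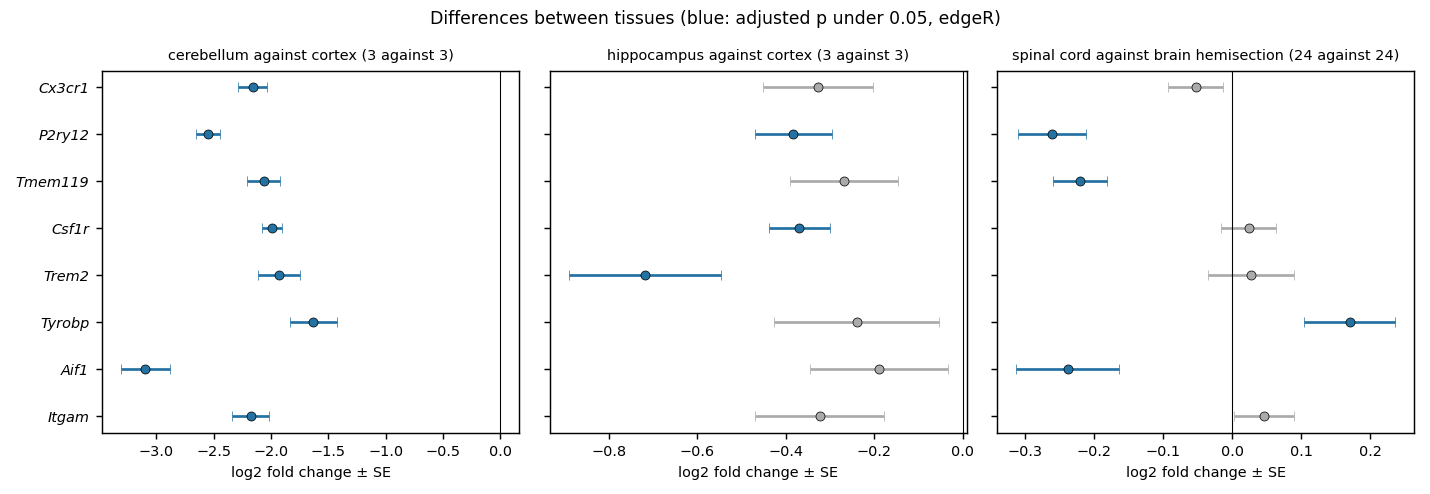
Log2 fold change ± SE from edgeR for each gene in cerebellum against cortex and hippocampus against cortex of wild-type DBA/1J mice (3 libraries each) and in spinal cord against brain hemisection over 24 mice, on 3 different horizontal scales; blue marks an adjusted p under 0.05. All 8 genes sit between −3.10 and −1.63 in cerebellum, whereas values lie between −0.72 and −0.19 in hippocampus and between −0.26 and 0.17 in spinal cord.

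Between spinal cord and brain hemisection the 8 genes differed little, although these tissues differed in most genes. In C57BL/6J mice edgeR called 0 of 8, as did DESeq2, where 56.9% of all genes were called, and 2 of the 8 had an unadjusted p under 0.05. These were *Aif1* at −0.55 ± 0.24, with an adjusted p of 0.0698, and *Tmem119* at −0.23 ± 0.10, with an adjusted p of 0.0708. *Tmem119* was called with the animal as a block, at an adjusted p of 0.0443. Brain C57BL/6J replicate 1 was the lowest of its group for 7 of the 8 genes, and without it 3 of the 8 were called, and 1 without spinal cord C57BL/6J replicate 2. In DBA/1J mice 2 of 8 were called, against 50.8% of all genes. *Trem2* was higher in spinal cord, at 10.9, 10.4 and 17.2 TPM against 8.98, 6.32 and 8.42 in brain (0.71 ± 0.19, adjusted p = 0.0098), and did not overlap. *Tmem119* was lower, by 0.29 ± 0.11 on the log2 scale with an adjusted p of 0.0442, a call kept in 4 of 11 alternatives. Here the block by animal gave 5 calls, adding *Csf1r* at 0.22, *Tyrobp* at 0.60 and *Itgam* at 0.23, all higher in spinal cord, with adjusted p of 0.0297, 0.0376 and 0.0443.

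Over all 24 mice, with genotype in the model, 80.6% of all genes were called and 4 of the 8 were. *P2ry12* was lower in spinal cord (−0.26 ± 0.049, adjusted p = 4.37e-06), in 20 of 24 mice. *Tmem119* was lower (−0.22 ± 0.039, adjusted p = 1.63e-06), also in 20 of 24. *Aif1* was lower (−0.24 ± 0.075, adjusted p = 0.0034) in 18 of 24. *Tyrobp* was higher (0.17 ± 0.066, adjusted p = 0.0178) in 17 of 24. *Cx3cr1*, *Csf1r*, *Trem2* and *Itgam* had fitted values between −0.05 and 0.05. By background, *Csf1r*, *Trem2*, *Itgam* and *Tyrobp* were each higher in spinal cord in 6 of 6 DBA/1J and h5 mice, and in 9, 6, 9 and 11 of the 18 C57BL/6J and h1 to h4 mice. Whether the backgrounds differed in this was not tested over the 24 mice. *P2ry12* and *Tmem119*, the genes most restricted to microglia, were both lower in spinal cord. The summed level of the 19 other homeostatic microglia genes went the other way in both wild-type strains. It was 520 to 546 TPM in C57BL/6J spinal cord against 367 to 439 in brain. In DBA/1J it was 550 to 734 against 390 to 459. Such a sum follows its most abundant genes. Over the 24 mice all 8 oligodendrocyte genes were higher in spinal cord, with a median of 1.75, and all 10 border macrophage genes lower, with a median of −1.10. The summed oligodendrocyte level was 21527 to 23396 TPM in C57BL/6J spinal cord and 6207 to 7097 in brain. A larger share of transcripts from 1 cell type lowers the TPM of the rest. The CPM values and the fits used TMM scaling, which is meant to offset such a shift. How far it still entered the microglia values was not tested.

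Between the background strains *Aif1* was the 1 gene of the 8 called in both brain and spinal cord. In brain, wild-type C57BL/6J libraries held 5.53, 8.14 and 9.14 TPM of *Aif1* and wild-type DBA/1J libraries 13.1, 12.5 and 10.9, with no overlap. The log2 fold change was 0.66 ± 0.18 with an adjusted p of 0.0488, and it was the 1 call among the 8, where 11.2% of all genes were called. This call lay at the threshold and held in 4 of 12 alternatives, with adjusted p of 0.0432 in DESeq2 and 0.0840 once sex entered the edgeR model. Of the 6 fits that each left out 1 library, 5 lost it. The other 7 genes lay between −0.27 for *Trem2* and 0.22 for *P2ry12*.

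In spinal cord 3 of 8 genes were higher in DBA/1J and none lower, where 21.3% of all genes were called. *Aif1* read 5.44, 5.88 and 4.42 TPM in C57BL/6J and 11.3, 8.56 and 15.3 in DBA/1J, 2.08-fold higher (1.05 ± 0.27, adjusted p = 0.0121). *Trem2* read 7.51, 8.09 and 8.68 TPM against 10.9, 10.4 and 17.2 (0.59 ± 0.14, adjusted p = 0.0072). *Csf1r* read 28.5, 30.9 and 29.1 TPM against 37.4, 32.6 and 44.9 (0.37 ± 0.070, adjusted p = 0.0018). None of the 3 overlapped between the strains, and all 3 calls held in 12 of 12 alternatives. *Cx3cr1*, at 0.33 ± 0.11, missed the threshold with an adjusted p of 0.0510 and passed it in 6 of 12. *Itgam*, *P2ry12* and *Tmem119* lay between −0.03 and 0.07, and *Tyrobp* was at 0.21 ± 0.15 with an adjusted p of 0.372.

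One library weighed on these differences. Spinal cord DBA/1J replicate 3 was above its group mean for all 8 genes. Its summed blood myeloid genes were at 64.3 TPM, against 15.5 and 16.1 in the other DBA/1J libraries and 7.60 to 10.3 in C57BL/6J, and its inflammatory genes at 25.9 TPM against 13.1 and 10.5. Of 12 blood myeloid genes 1 was at 0 in all 3 DBA/1J libraries and 2 in all 3 C57BL/6J libraries, and 2 of the 3 tested were higher in DBA/1J. Without this library the 3 calls remained, at 0.83 for *Aif1* (adjusted p = 0.0399), 0.42 for *Trem2* (adjusted p = 0.0253) and 0.28 for *Csf1r* (adjusted p = 0.0023). The summed astrocyte genes were at 3198 to 3754 TPM in DBA/1J spinal cord and 4237 to 4462 in C57BL/6J, with 1 of 8 higher and 2 lower, and mitochondrial genes took 5.47 to 5.61% of counts against 6.23 to 6.88%. The part of these in the microglia values was not tested. The mutant libraries give a further view of the strain, though the wild-type libraries are part of these ranges. In brain, *Aif1* ranged from 5.53 to 11.56 TPM over 18 libraries of C57BL/6J and h1 to h4 and from 10.95 to 14.27 over 6 libraries of DBA/1J and h5. In spinal cord the ranges were 4.42 to 9.13 and 8.50 to 15.31. Both pairs of ranges overlapped only at their edges. DBA/1J reads were aligned to a reference built from C57BL/6J, and the part of sequence differences between the strains was not tested.

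**Figure D3:**
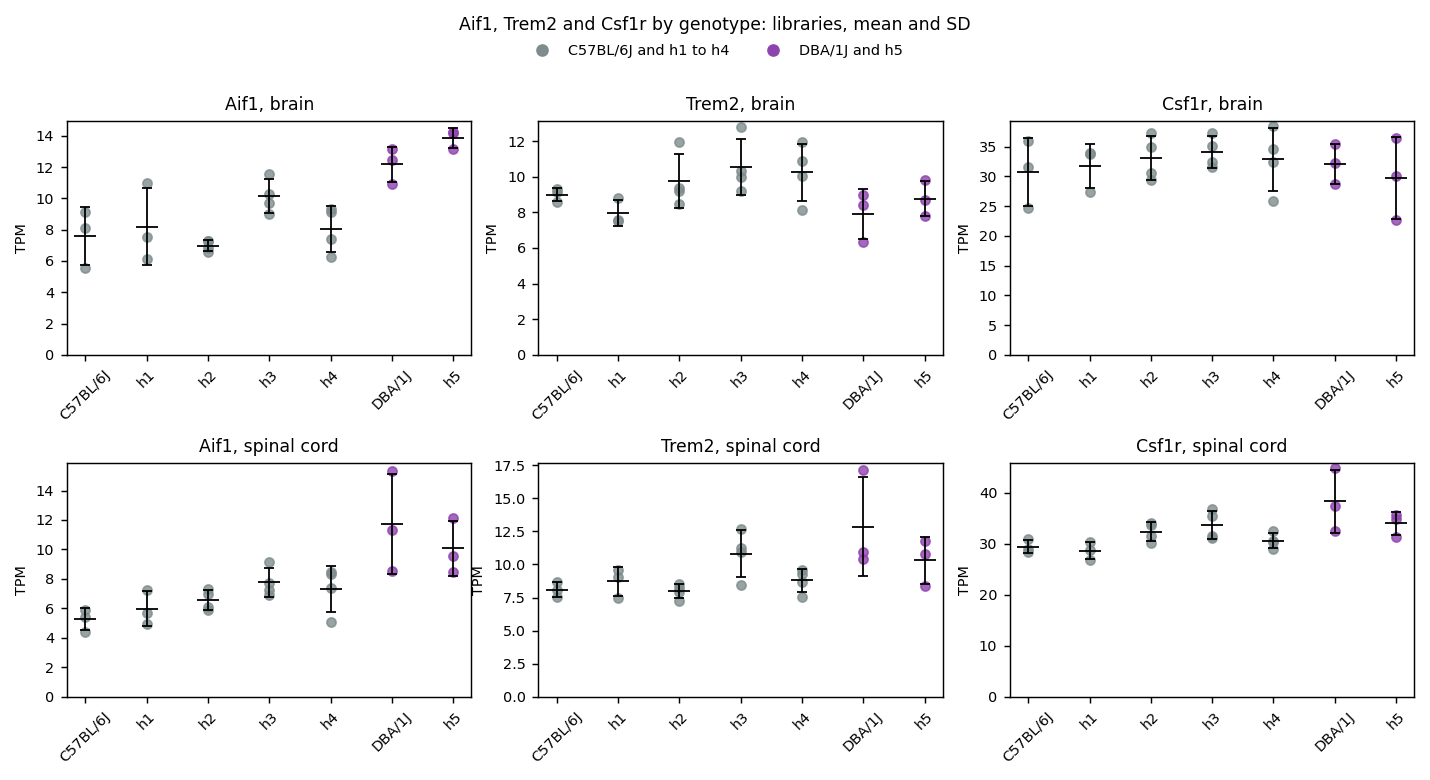
TPM (linear axes from 0) of *Aif1*, *Trem2* and *Csf1r* in brain (top) and spinal cord (bottom) by genotype, with points for libraries, mean ± SD, and colour for C57BL/6J with h1 to h4 or DBA/1J with h5. *Aif1* in the 3 DBA/1J brains sits at 10.9 to 13.1 against 5.53 to 9.14 in C57BL/6J, whereas *Trem2* and *Csf1r* separate the wild-type strains in spinal cord and not in brain.

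Whether the strain difference itself changed from brain to spinal cord was tested by an interaction term. edgeR called 0 of 8, with 1 at an unadjusted p under 0.05, against 0.321% of all genes. That gene was *Trem2*, whose strain difference was larger in spinal cord by 0.86 ± 0.22 on the log2 scale, with an adjusted p of 0.135. DESeq2 called *Trem2*, at an adjusted p of 0.0324, and with the animal as a block the edgeR value was 0.0946. For *Aif1* the term was 0.40 ± 0.36 with an adjusted p of 0.773.

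Genes of the same pathways were also compared between the strains. In spinal cord, where 21.3% of all genes were called, 5 of 19 other homeostatic genes were higher in DBA/1J and 1 lower. The cathepsin gene *Ctss* was at 0.68, *Olfml3* at 0.57 and the cytokine receptor genes *Csf3r* and *Il10ra* at 0.83 and 0.47, while the P-selectin ligand gene *Selplg* was the 1 that was lower, at −0.28. Of 15 ligands and partners 3 were higher, the CSF1R ligand *Csf1* at 0.23, *Irf8* at 0.53 and the TREM2 ligand *Apoe* at 0.22, and 1 lower, *Cx3cl1* at −0.17. Of 8 inflammatory and antigen presentation genes tested 4 were higher, *Cd74* at 2.19, *H2-Ab1* at 2.71, *Il1b* at 2.47 and *Il1a* at 1.18, and the sum of this list was highest in DBA/1J replicate 3. Of 14 disease-associated microglia genes 6 were higher, among them *Cd9* at 0.32 and *Ctsd* at 0.19. In brain, where 11.2% of all genes were called, 1 of the 19 was called, *Csf3r* at 0.58, and none of the 15. Of 7 inflammatory genes tested there the prostaglandin synthase gene *Ptgs2* was lower, at −1.11, and of the 14 disease-associated genes the lipase gene *Lpl* and the chemokine gene *Ccl6* were higher, at 0.96 and 1.71. The interaction term of strain and tissue called 1 gene of these lists, *H2-Ab1*, with an adjusted p of 0.0438.

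Against their strain-matched controls the *Rorb* mutants showed little difference in the 8 genes. Over 13 comparisons and 104 tests, edgeR called 1, *Trem2* in h3 spinal cord, and DESeq2 called 3, all of them in h3 spinal cord. An unadjusted p under 0.05 was reached in 15 of the 104, or 14.4%, against 9.31% of the tests over all genes, and 12 of the 15 were on the higher side in the mutant. Fitted log2 fold changes ran from −0.39 to 0.62, with a median size of 0.10 and a median SE of 0.11. Only 1 of the 104 had a 95% interval that reached beyond 1 on the log2 scale, *Aif1* in h3 spinal cord with an upper limit of 1.01. These intervals used the normal multiplier of the SE, which is narrow for so few libraries. They therefore do not exclude differences larger than 2-fold. The comparisons of h1 to h4 used the same controls and are not independent of each other.

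In brain the counts were 0 of 8 for each strain with edgeR and with DESeq2, and the shares of all genes given for the mutants are those of edgeR. In h1 edgeR called no gene of 17603 and DESeq2 17, and 0 of the 8 had an unadjusted p under 0.05. In h2 0.136% of genes were called and 0 of the 8 reached p under 0.05. In h3 0.164% were called and 1 of the 8 reached it, *Trem2* at 0.33. In h4 0.703% were called and 3 of the 8 reached it, *P2ry12* at 0.32, *Trem2* at 0.28 and *Cx3cr1* at 0.18. In h5 0% were called, against 64 genes with DESeq2, and 0 of the 8 reached it. All 8 values were positive in h3 and in h4, with medians of 0.18 and 0.17. Brain C57BL/6J replicate 1, the lowest control for 7 of the 8 genes, enters each of these except h5. So does replicate 3, the highest for 7 of the 8, whose summed blood myeloid genes were at 72.0 TPM against 17.4 and 18.5 in the other controls. Among mutant brains this sum ran from 18.7 to 176.7 TPM in h1, 17.1 to 34.5 in h2, 19.03 to 47.95 in h3 and 15.7 to 20.1 in h4, and its part was not tested.

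In spinal cord h1 had 0 of 8 called by either tool, 0 at p under 0.05 and 0.289% of all genes called. In h2 it was 0 of 8 by either tool, with 3 at p under 0.05, *Csf1r* at 0.14, *Itgam* at 0.18 and *Cx3cr1* at 0.11, and 2.09% of genes called. In h4 it was 0 of 8 by either tool, with 1 at p under 0.05, *Aif1* at 0.54, and 1.75% of genes called. In h5 it was 0 of 8 by either tool, with 2 at p under 0.05, *Tyrobp* at −0.38 and *Csf1r* at −0.18, and 0.00581% of genes called. Without DBA/1J replicate 3, which held 43.2 TPM of *Tyrobp* against 26.6 and 28.3 in the other controls and the most blood myeloid RNA of them, these values were −0.19 and −0.09, with unadjusted p of 0.191 and 0.212 in edgeR's quasi-likelihood test. Among the h5 libraries the summed blood myeloid genes ran from 17.9 to 55.4 TPM and the meningeal genes from 47.2 to 387.6, and their part was not tested.

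In h3 spinal cord 1 of 8 was called, where 1.01% of all genes were. *Trem2* read 8.43, 10.9, 12.7 and 11.2 TPM in h3 and 7.51, 8.09 and 8.68 in C57BL/6J. Of the 4 h3 libraries 3 lay above all controls and replicate 1 lay among them. The log2 fold change was 0.49 ± 0.10 with an adjusted p of 0.0440, a value close to the threshold. It was 0.0134 with DESeq2, 0.112 once sex entered the model and 0.107 with replicate numbers as a block. The h3 group had 3 males and 1 female and the controls 1 male and 2 females. Leaving out single libraries gave adjusted p of 0.0175 to 0.168, and the call remained only without h3 replicate 1. All of the fits kept the direction.

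*Csf1r* in h3 spinal cord read 31.5, 36.8, 31.2 and 35.4 TPM, all above the 3 controls. It was at 0.23 with an adjusted p of 0.0600 in edgeR and 0.0061 in DESeq2. *Cx3cr1* was at 0.22, with adjusted p of 0.120 and 0.0431. *Aif1* had the largest fitted value of any mutant comparison, 0.62 ± 0.20, with libraries at 9.13, 7.24, 6.94 and 7.74 TPM above all 3 controls, but its adjusted p was 0.188. *P2ry12* was at −0.17 and *Itgam* at −0.06. Among other genes of microglia, *Ctss* at 0.38 and the lectin gene *Clec7a* at 1.20 were higher in h3 spinal cord. The summed blood myeloid genes were at 11.2 to 35.8 TPM in h3 against 7.60 to 10.3 in the controls, and 1 of 5 tested was higher. The summed inflammatory and antigen presentation genes were at 8.67 to 11.5 TPM in h3 against 5.47 to 6.39, the oligodendrocyte precursor genes at 55.3 to 67.9 against 69.8 to 79.9 and the oligodendrocyte genes at 16842 to 22036 against 21527 to 23396, with 1 of 8 oligodendrocyte genes called lower. The part of these lists in the microglia values was not tested. Whether the h3 difference was greater in spinal cord than in brain was tested, and edgeR and DESeq2 called 0 of 8, with 0 of the 8 at p under 0.05. Over all genes edgeR called 0% and DESeq2 3 genes. For *Trem2* this term was 0.17 ± 0.16.

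The h5 mice were also compared in the dissected regions, where the start-loss allele can be read on its own background. In cortex 0 of 8 were called by edgeR or DESeq2, and 1 had p under 0.05. Over all genes edgeR called 0% and DESeq2 59 genes. The 1 with p under 0.05 was *Trem2* at −0.39, with h5 libraries at 12.5, 12.1 and 12.8 TPM, all below the DBA/1J libraries, and an adjusted p of 0.764. In hippocampus it was 0 of 8 by either tool, 0 at p under 0.05 and 0.0118% of genes. In cerebellum it was 0 of 8 by either tool, 0 at p under 0.05 and 0.0120% of genes. The 95% intervals of *Csf1r*, the gene with the most reads, were −0.16 to 0.13 in cortex, −0.08 to 0.12 in hippocampus and −0.05 to 0.26 in cerebellum. That of *Aif1* in cerebellum, where its reads were fewest, was −0.41 to 0.76. Each of these intervals used the normal multiplier of the SE and is narrow for so few libraries.

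**Figure D4:**
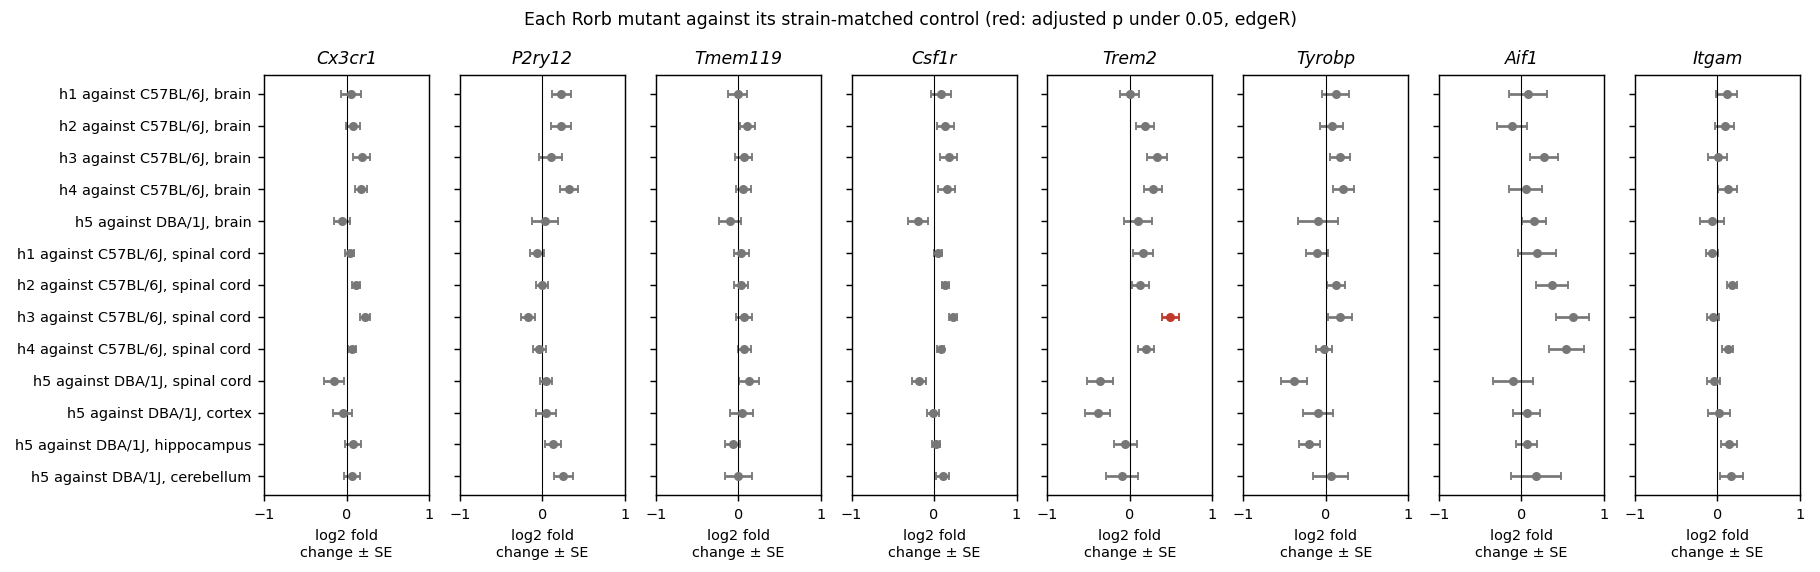
Log2 fold change ± SE from edgeR for each gene (panels) in each of the 13 mutant comparisons (rows), with red for an adjusted p under 0.05. Values run from −0.39 to 0.62 around the zero line, and *Trem2* in h3 spinal cord, at 0.49, is the 1 red point.

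Sex was not accompanied by a called difference. In brain edgeR and DESeq2 called 0 of 8 between males and females, with 0 at p under 0.05 and 0.0855% of all genes called. In spinal cord they called 0 of 8, with 1 at p under 0.05, *Tyrobp* at −0.18 in males with an adjusted p of 0.745, and 0.146% of all genes called. The SE of these values was 0.035 to 0.12 in spinal cord.

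How far the 8 genes moved together was described by correlations across libraries. After subtracting each group's mean on the log2 CPM scale, so that tissue and genotype did not contribute, the 28 pairs had a median Pearson r of 0.42 over 66 libraries. The pair *Csf1r* and *Itgam* was highest at 0.73 and the pair *Trem2* and *Aif1* lowest at 0.08. Each gene against the mean of the other 7 gave 0.79 for *Csf1r*, 0.77 for *Cx3cr1*, 0.71 for *Itgam*, 0.58 for *P2ry12*, 0.52 for *Tyrobp*, 0.51 for *Trem2*, 0.43 for *Tmem119* and 0.28 for *Aif1*. *Csf1r* and *Cx3cr1* were also the genes with the most counts and *Aif1* the one with the fewest, and the part of counting error and of shared depth and dissection in these values was not tested.

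Among the genes most like the mean of the 8 by the same measure, out of 14795 genes with a mean CPM of at least 1, were *Ctss* at 0.78, the complement gene *C1qc* at 0.76, *Laptm5* at 0.73 and *Gpr34* at 0.71. *Ctss*, *Laptm5* and *Gpr34* are in the list of other homeostatic microglia genes. Over the 20 group means, where tissue dominates, the nearest were *Prss12* and *Frzb* at 0.99 and *Gpr34*, *Tmem44* and *Slc30a3* at 0.98. In cerebellum against cortex *Prss12* was at −6.40 and *Slc30a3* at −5.67.

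**Figure D5:**
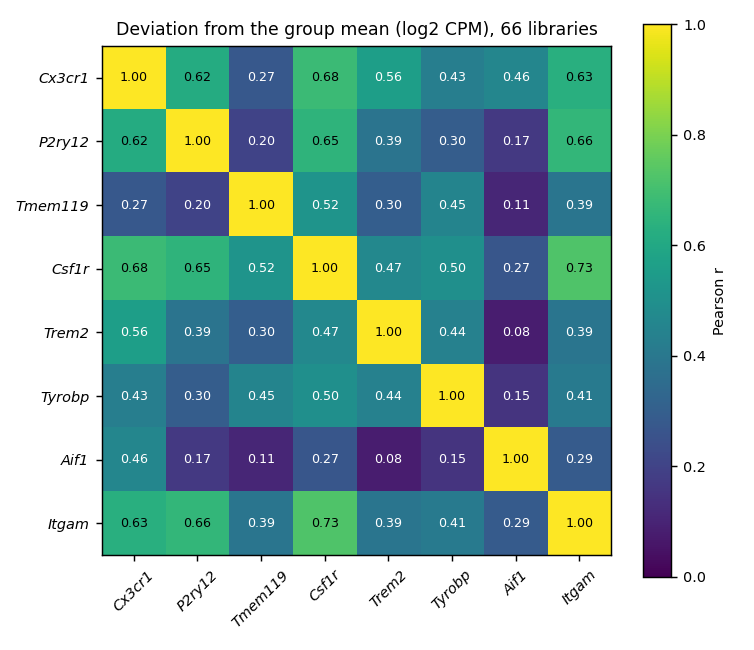
Pearson r between each pair of the 8 genes over 66 libraries, on log2 CPM after the mean of each group was subtracted, with colour from 0 to 1. *Csf1r*, *Itgam*, *Cx3cr1* and *P2ry12* form the highest block, up to 0.73, and the *Aif1* row holds the lowest values, down to 0.08.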

How the data were processed

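Brain hemisections, spinal cords and dissected regions were sequenced as poly(A)-selected paired-end libraries. The authors trimmed reads with Trim Galore, checked them with FastQC, aligned them to GRCm38 with STAR and quantified genes with RSEM. The values used are the RSEM expected counts and TPM (scaled per length and per library) that they deposited for each library. Expected counts, of which 5.07% were not whole, were rounded. Symbols were taken by Ensembl identifier from GENCODE and matched 41407 of 45706 identifiers, and positions and promoters came from RefSeq on GRCm38.p6. The counting was not stated to use strand.

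Groups were compared within a tissue with edgeR 4.0.16 in R 4.3.3, using TMM scaling, filterByExpr, the quasi-likelihood test and Benjamini-Hochberg adjustment over all genes tested, with a threshold of 0.05. The SE was the fold change divided by the root of the test statistic. Each mutant was set against its strain-matched control, as in the study's methods, which used DESeq2. CPM used library totals adjusted by TMM factors, and log2 CPM for correlations used a pseudocount of 0.1. Named genes were the 8 members, at most 4 called genes per marker list and comparison by smallest adjusted p, and the 5 genes most like the members in each of 2 measures. *Csf1*, *Syk*, *Itgb2*, *Spi1*, *Irf8*, *Itgal*, *Selplg* and *Lst1* were named outside this rule after their values were seen where it did not name them. The members and lists were chosen with earlier results of these data known. Alternatives were DESeq2 1.42.0, edgeR with the DESeq2 size factors, edgeR without a filter, sex in the model, a replicate block, one fit over all groups and leaving out each library. The leave-one-out fits of the interaction terms and the block by animal in the fit of 24 mice were added after seeing the data.

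Brain and spinal cord, and the dissected regions, were paired by animal from the sample identifiers. Their deviations from the group means correlated at −0.03 to 0.43. Mutants and controls share only a number. No 2 libraries held identical values. Separate mice were the replicates. Library totals limit the precision, and fold changes of *Aif1* rest on the fewest reads. Scripts were tested on simulated data. 1 dissected h5 mouse, with libraries of 3 regions, carried Y-linked reads against its label, and labels were kept. FPKM columns were not used. 1 gene that the naming rule selects is not reported here.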

Additional observations from a re-analysis of the deposited data

Results flagged for a closer look

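In a check of the 48 sets of 4 values, 8 genes in each group of 4 mice, for a library far from its group, 1 set stood out. *Tmem119* in spinal cord of h3 was at 7.90 TPM in its lowest library, replicate 2, against 9.06, 9.14 and 9.17 in the others. The gap made up 0.913 of the whole range, above the critical value of 0.829. Chance alone picks out about 1 set in 20. The same library was the highest of its group for *Csf1r*, at 36.83 TPM, and for *Cx3cr1*, at 24.07. Without it the h3 value of *Tmem119* was 0.14 with an adjusted p of 0.566.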

How the results depend on the processing

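For the genes that passed a test, 296 refits under alternatives kept 267 calls and lost 29, and none reversed direction. All calls in cerebellum against cortex and in hippocampus against cerebellum remained, in 11 alternatives each. These large differences make up most of the 267, and all 29 losses were in other comparisons. The number of the 8 genes called moved as follows. For h2 spinal cord it went from 0 to 1 with no low-count filter, and was 0 to 1 when single libraries were left out. For h3 spinal cord, from 1, it was 3 with DESeq2, 2 with no low-count filter, 0 with sex as a covariate, 0 with the replicate block, 2 in one fit of all spinal cord groups and 0 to 2 when single libraries were left out. For DBA/1J against C57BL/6J in brain, from 1, it was 0 with DESeq2 size factors, sex as a covariate or the replicate block, and 0 to 1 when single libraries were left out. In spinal cord this comparison went from 3 to 4 in 6 of 12 alternatives. For spinal cord against brain in C57BL/6J, from 0, it was 1 with no low-count filter, with the block by animal and in one fit of 66 libraries, 4 over 24 mice, and 0 to 3 when single libraries were left out. The same comparison in DBA/1J, from 2, gave 1 with DESeq2, 5 with the block, 4 over 24 mice and 1 to 3 when single libraries were left out. For hippocampus against cortex, from 3, it was 5 in one fit of 66 libraries and 1 to 6 when single libraries were left out. For the strain difference between tissues DESeq2 gave 1. The cause of these moves was not tested. The block changed no other count of the 8 by over 1.5 times. Replicate numbers shared by mutants and controls gave correlations over 0.1 in every pair for h1 in both tissues and h4 in brain, where 0 of the 8 were called with or without the block. Depth limits *Aif1*, *Tyrobp* and *Trem2* most.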

Other observations

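*Aif1* lies in the major histocompatibility complex class III region of chromosome 17. Genes within 100000 bases were looked up after the *Aif1* values had been seen, and the counts below include *Aif1* itself. Of 30 genes in this window 13 were tested in brain, and 2 were higher in DBA/1J than in C57BL/6J, where 11.2% of all genes were called, *Aif1* and the class I gene *H2-D1* at 0.92. In spinal cord 17 were tested and 4 were higher, where 21.3% of all genes were called, *Aif1*, *H2-D1* at 1.35, *Lta* at 1.89 and *Ly6g6f* at 1.11. None was lower in either tissue. The adjacent gene *Lst1*, also expressed by myeloid cells, was at −0.48 in brain and −0.35 in spinal cord, with adjusted p of 0.465 and 0.688.

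Of the other microglia lists in h2 and h4, edgeR called the following genes. In h2 spinal cord, where 2.09% of all genes were called, 1 of 19 homeostatic genes was lower, the phagocytic receptor gene *Mertk* at −0.27. Of 14 disease-associated genes *Lpl* at 0.54 and the lipoprotein gene *Apoe* at 0.16 were higher and *Spp1* lower at −0.17, and of 7 inflammatory and antigen presentation genes *Cd74* was higher at 0.92. In h4 spinal cord, where 1.75% were called, 1 of the 19 was higher, the adhesion receptor gene *Adgrg1* at 0.18, and 2 of the 14, *Lpl* at 0.52 and *Apoe* at 0.18. In h4 brain, where 0.703% were called, *Adgrg1* was higher at 0.30.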
